A study of Mus musculus with 2 samples.

Results

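Il1b high monocytic phagocytes are cells of the tumour that hold much RNA for the cytokine interleukin 1 beta and for lysozyme, but little for the complement C1q genes of resident-type macrophages. They were picked from single-cell RNA sequencing of day 21 tumours of mice engrafted with MC38, a colorectal cancer line of mouse origin. A member is a cell barcode with at least 1000 UMIs (unique molecular identifiers, 1 per captured RNA molecule) that met 6 conditions. Per 10000 UMIs of the cell, Il1b reached at least 20, Lyz2 at least 20, the sum of C1qa, C1qb and C1qc stayed under 40 and the sum of S100a8 and S100a9 under 50. In raw UMIs, Cd3e, Cd3d and Cd3g together were at most 2 and Ccr7 at most 1. Of 11246 barcodes in all, 10425 had at least 1000 UMIs and 841 were members. The study gives 10782 cells in all and describes them as tumour-infiltrating lymphocytes; the filter behind that number was not found in the sources used here.

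The members came from 1 library of TMEM16F KO tumour tissue, with 509 members, and from 1 library of vector control tumour tissue, with 332 members. TMEM16F, the product of the gene Ano6, is a scramblase that calcium activates and that exposes the lipid phosphatidylserine on the cell surface. Per the study's design text the knockout or vector was in the engrafted MC38 cells, so the phagocytes are taken as host cells in both groups, and no mouse was treated. The sources used here do not state mouse strain, age, the number of mice behind a library or the number of MC38 clones. Each group is a single library, so a difference between genotypes and one between tumour preparations cannot be told apart. No test was possible, and the intervals, at 95%, cover counting error alone.

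Interleukin 1 beta is made by monocytes, macrophages and neutrophils as an inactive precursor, which inflammasome proteases such as caspase 1 cut into the secreted form. Its gene is switched on through NF-kB after Toll-like receptor, TNF or interleukin 1 receptor signals. In tumours, monocytes that arrive from blood pass through states with high Il1b, prostaglandin and chemokine RNA on their way to macrophages. Such cells can draw neutrophils and further monocytes into the tissue.

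The libraries were of like depth. Members had a median of 6705 UMIs and 2142 genes in the TMEM16F KO library, against 5984.5 UMIs and 1900 genes in the vector control library. Ribosomal protein genes took 14.1% of UMIs of TMEM16F KO and 17.1% of vector control members, and mitochondrial genes took 0.175% and 0.163%. RNAs that stay in the nucleus, such as Malat1 and Neat1, took 0.470% of UMIs of TMEM16F KO members and 0.359% of those of vector control members. Per member the libraries lay further apart, with a median share of 0.161% in TMEM16F KO and 0.0907% in vector control members. The part of this gap in the differences between the libraries was not tested. The libraries shared 10 barcode sequences, of which 0 belonged to TMEM16F KO members and 2 to vector control members.

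The values that chose the members are given here as a description. Il1b had a median of 49.9 per 10000 UMIs in TMEM16F KO members, with 25.1 at the 10th and 109 at the 90th percentile. In vector control members its median was 47.4, with 25.9 and 99.5 at the same percentiles. Lyz2, the myeloid lysozyme, had a median of 56.9 in TMEM16F KO and 66.7 in vector control members. The C1q sum had a median of 6.57 in TMEM16F KO and 5.69 in vector control members, far from its limit of 40, and S100a8 plus S100a9 had a median of 0 in both. Just inside the Il1b limit, at 20 to 25 per 10000, lay 49 TMEM16F KO and 30 vector control members. Their Cd14 level was 1608 CPM (UMIs summed over the cells and scaled to a total of 1000000) in TMEM16F KO and 1214 CPM in vector control cells. Just outside it, at 15 to 20, lay 66 TMEM16F KO and 59 vector control barcodes, with Cd14 at 1284 CPM in TMEM16F KO and 1260 CPM in vector control barcodes. Cd14 was thus higher just inside the limit in the TMEM16F KO library only. Osm was lower just inside than just outside in both libraries. It was at 276 against 311 CPM in TMEM16F KO and at 206 against 280 CPM in vector control barcodes.

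The label was checked with markers. Cd14, the co-receptor for bacterial lipopolysaccharide, and Osm, the cytokine oncostatin M, were not used by the rule. Cd14 stood at 2120 CPM (2076 to 2165) in TMEM16F KO and 1608 CPM (1559 to 1657) in vector control members. T cell barcodes should lack it and so show the level of free RNA in the droplets. They had 103 CPM of Cd14 in TMEM16F KO and 68.4 CPM in vector control, at a median depth of 5330.5 and 5996 UMIs. After every cell was thinned to 2000 UMIs, a Cd14 UMI was seen in 90.04% of TMEM16F KO and 85.4% of vector control members, against 13.5% and 7.74% of their T cell barcodes. The unthinned shares were 95.1% and 94.3% of members. Osm stood at 502 CPM in TMEM16F KO and 438 CPM in vector control members, against 43.2 and 29.6 CPM in T cell barcodes of those libraries. Cd14 and Osm together summed to 2622 CPM in TMEM16F KO and 2045 CPM in vector control members. Cells that met the other conditions but had C1q at or over 40 reached 2080 and 1534 CPM. The 2 markers are thus not particular to the members.

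The 12 monocyte markers summed to 2438 CPM in TMEM16F KO and 2943 CPM in vector control members, against 1063 and 851 CPM in T cell barcodes. Cells of the same gate with Il1b under 20 had nearly as much, at 2269 CPM in TMEM16F KO and 2866 CPM in vector control. The 9 macrophage markers outside the gate summed to 2762 CPM in TMEM16F KO and 2127 CPM in vector control members, so they outweighed the monocyte markers in the TMEM16F KO and not in the vector control library. Among monocyte genes, Fn1 (fibronectin) reached 669 CPM in TMEM16F KO and 967 CPM in vector control members, and Plac8 788 and 984 CPM. Ccr2, the receptor that brings monocytes out of bone marrow, stood at 224 CPM in TMEM16F KO and 316 CPM in vector control members. The classical monocyte marker Ly6c2 gave the label less weight. It had 207 CPM in TMEM16F KO and 217 CPM in vector control members, below the 396 and 292 CPM of T cell barcodes, which also make it. Macrophage markers outside the gate were present too: Apoe, which encodes the lipid carrier apolipoprotein E, reached 1006 CPM in TMEM16F KO and 710 CPM in vector control members.

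Of other cell types, 10 neutrophil markers outside the gate summed to 39.2 CPM in TMEM16F KO and 39.8 CPM in vector control members. Stfa2l1 and Camp were at 0 in both, Retnlg was at 0 in TMEM16F KO members, and Ly6g, Cxcr2 and Mmp9 were at 0 in vector control members. Red cell globins were at 0 of 4 in both. The 9 T cell markers outside the gate summed to 47.5 CPM in TMEM16F KO and 36.4 CPM in vector control members, against 4609 and 3965 CPM in T cell barcodes. The 8 NK cell markers summed to 105 CPM in TMEM16F KO and 27.9 CPM in vector control members, where Klrb1c, Klra8 and Eomes were at 0. The 12 conventional dendritic cell markers summed to 347 CPM in TMEM16F KO and 303 CPM in vector control members, below the 479 and 368 CPM of T cell barcodes. The 5 plasmacytoid dendritic cell markers summed to 516 CPM in TMEM16F KO and 369 CPM in vector control members, above the 289.9 and 235 CPM of T cell barcodes, with Siglech at 0 in members of both. The part of these other cell types in the differences between the libraries was not tested.

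Il1b high monocytic phagocytes made up a larger share of the TMEM16F KO library. They were 9.001% (8.27 to 9.78, exact Clopper-Pearson) of its barcodes with at least 1000 UMIs, against 6.96% (6.25 to 7.72) in vector control. The ratio of the shares was 1.29 (1.12 to 1.49). Over Lyz2 positive barcodes with few Cd3 UMIs, the share was 18.7% of 2718 TMEM16F KO and 13.6% of 2438 vector control barcodes. The libraries parted at the C1q limit more than at the Il1b limit. Of Lyz2 positive barcodes low in Cd3 and Ccr7, the C1q limit kept 1152 of 2676 TMEM16F KO and 749 of 2404 vector control barcodes. Of the barcodes that also passed the S100 limit, Il1b reached 20 in 509 of 1137 TMEM16F KO and 332 of 747 vector control barcodes. The shares describe this gate and not a cell lineage.

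**Figure D1:**
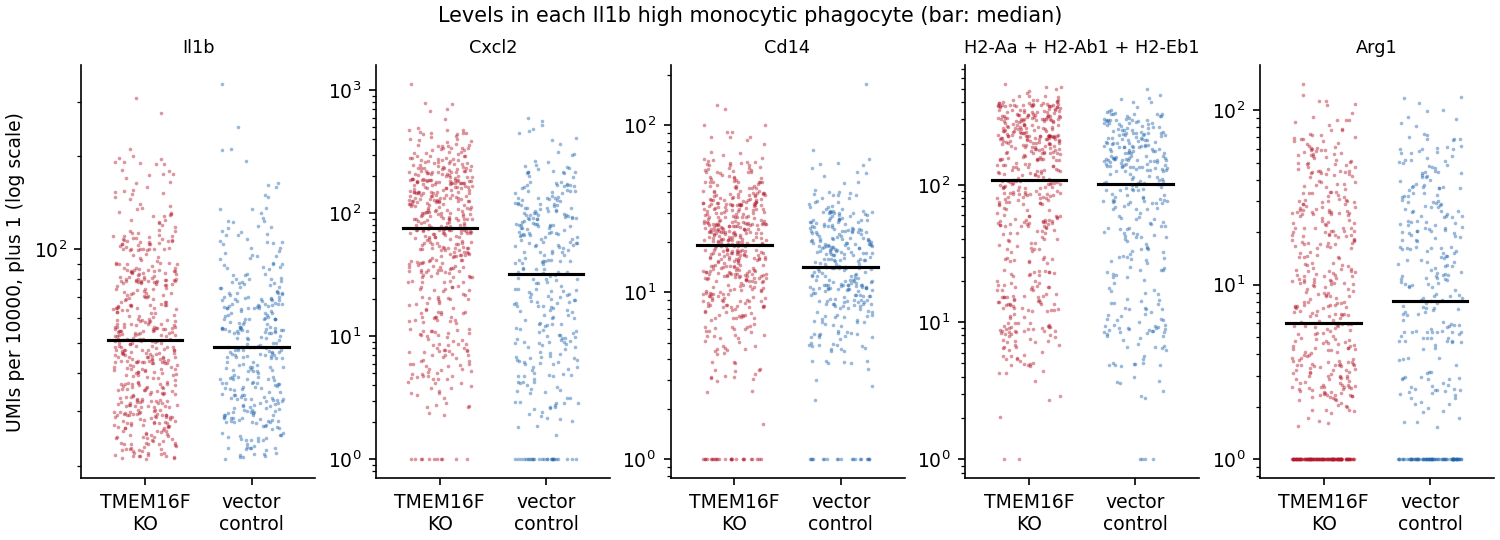
Levels in each member, in UMIs per 10000 UMIs of the cell plus 1 on a log axis, for Il1b, Cxcl2, Cd14, the sum of H2-Aa, H2-Ab1 and H2-Eb1, and Arg1. Points are cells, red in the TMEM16F KO and blue in the vector control library, and bars are medians. Cxcl2 has a median of 75.1 in TMEM16F KO and 31.4 in vector control members. Il1b has nearly the same median in both, but the gate sets its minimum.

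What sets the members apart from cells of the same gate with Il1b under 20 was read within each library, with no test, since the gate is built on the same cells. There were 628 such Il1b low cells in TMEM16F KO and 415 in vector control. Of 5624 measured genes (at least 100 UMIs over all members and a UMI in at least 5% of them), 0.178% were at least 2-fold higher in members in both libraries and 0.480% at least 2-fold lower. The higher count includes Il1b, which the gate fixes. The filter used members alone, so a gene low in members but present in Il1b low cells could not be counted. The higher and lower shares are therefore not on an equal footing, and the leading genes had to be measurable only in members. Il6, an acute-phase cytokine, was 2.998-fold higher in members of the TMEM16F KO and 3.92-fold higher in members of the vector control library, though at only 22.7 and 22.0 CPM. Il1a, the sister gene of Il1b, was 2.94-fold higher in TMEM16F KO and 2.68-fold higher in vector control members. Ptgs2, which encodes the inducible cyclooxygenase, was 2.36-fold higher in TMEM16F KO and 2.40-fold higher in vector control members, at 572 and 406 CPM.

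Several receptor genes were among the 20 leading genes. Il1r2, a decoy receptor that binds interleukin 1 without a signal, was 2.72-fold higher in TMEM16F KO members and 2.21-fold higher in vector control members than in Il1b low cells. The adenosine receptor genes Adora2a (2.72-fold in TMEM16F KO, 2.66-fold in vector control) and Adora2b (2.22-fold and 2.14-fold) stood beside it. Clec4e, the Mincle receptor for mycobacterial glycolipids, and Trem1, an amplifier of Toll-like receptor signals, were 2.02-fold and 2.06-fold higher in TMEM16F KO members, and 1.82-fold and 1.80-fold higher in vector control members. Osm and Cd14, named as markers of these cells, were 2.44-fold and 2.58-fold higher in TMEM16F KO members and 2.00-fold and 1.87-fold higher in vector control members. Ptafr, the receptor for platelet activating factor, Hcar2, the receptor for niacin and ketone bodies, and Thbs1, the matrix protein thrombospondin 1, were also among the 20 leading genes. The 20 lowest genes included Timp2, an inhibitor of metalloproteases, at 59.7 CPM in TMEM16F KO members against 146 CPM in Il1b low cells, and at 32.1 against 93.5 CPM in the vector control library. Elmo1, which helps phagocytes engulf dying cells, was at 54.8 CPM in TMEM16F KO members against 151 CPM in Il1b low cells, and at 41.4 against 95.6 CPM in the vector control library. Nuclear-retained RNA made up 1.14% of UMIs of TMEM16F KO and 0.611% of vector control Il1b low cells, above the members in both, and its part in these differences was not tested.

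Il1b itself varied widely among members, and several genes that the rule did not use varied with it in both libraries. Members were put in 3 steps of Il1b per 10000 UMIs: 20 to under 40, 40 to under 80, and 80 and over. The steps held 179, 209 and 121 TMEM16F KO members, and 128, 150 and 54 vector control members. Cd14 was at 1710, 2103 and 3032 CPM over the steps in TMEM16F KO members, and at 1345, 1661 and 2351 CPM in vector control members. Osm was at 350, 495 and 844 CPM in TMEM16F KO and at 373, 431 and 702 CPM in vector control members. Both genes therefore increased at every step in both libraries.

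Nlrp3, the sensor of the inflammasome that frees active interleukin 1 beta, was at 283, 422 and 576 CPM in TMEM16F KO members over the same steps, and at 239, 346 and 538 CPM in vector control members. Cebpb, a transcription factor of inflammatory monocytes, was at 2068, 2500 and 3659 CPM in TMEM16F KO and at 2147, 2400 and 3548 CPM in vector control members. The 2 libraries lay close together for Cebpb at each step. Thbs1 was at 321, 427 and 635 CPM in TMEM16F KO and at 264, 295 and 839 CPM in vector control members. Apoe ran the other way in the TMEM16F KO library, at 1232, 885 and 815 CPM, but in the vector control library it was at 812, 588 and 826 CPM, with no steady order. Mmp12, macrophage elastase, was lowest at the top step in both libraries, at 286 CPM in TMEM16F KO and 308 CPM in vector control members. Cells of the top step were shallower, with a median of 5339 UMIs in TMEM16F KO and 5047 UMIs in vector control members, against 7063 and 6520.5 at the lowest step.

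**Figure D2:**
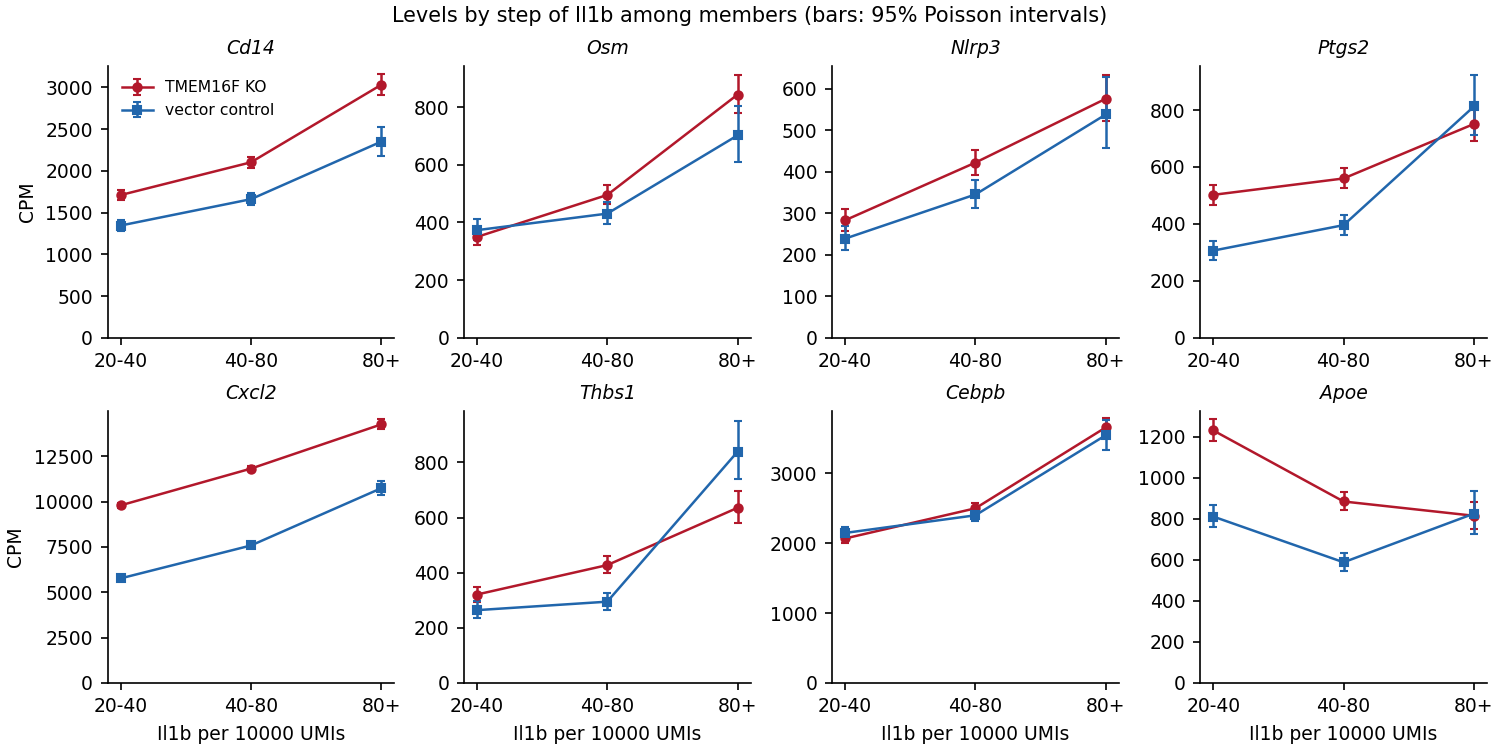
CPM of 8 genes over the 3 steps of Il1b per 10000 UMIs, in TMEM16F KO (red circles) and vector control (blue squares) members, with 95% Poisson intervals. Cd14, Osm, Nlrp3, Ptgs2, Cxcl2, Thbs1 and Cebpb increase over the steps in both libraries, and Apoe does not.

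Members spanned a wide range of MHC class II RNA, which encodes the molecules that show antigen to CD4+ T cells. The sum of H2-Aa, H2-Ab1 and H2-Eb1 had a median of 107 per 10000 UMIs in TMEM16F KO and 101 in vector control members. Its 10th and 90th percentiles were 7.95 and 349 in TMEM16F KO and 7.48 and 280 in vector control members. Limits of 20 and 150 were set after these values were seen. Under 20 lay 22.8% (19.2 to 26.7) of TMEM16F KO and 23.2% (18.8 to 28.1) of vector control members. At 150 and over lay 43.4% (39.1 to 47.9) of TMEM16F KO and 37.0% (31.8 to 42.5) of vector control members.

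Cells at the ends of this range carried different programs, with nearly the same Il1b. Il1b was at 5460 CPM in MHC class II low and 5849 CPM in MHC class II high TMEM16F KO members, and at 5841 and 5138 CPM in those of the vector control library. Arg1, the arginase of suppressive myeloid cells, was at 2656 CPM in low and 937 CPM in high TMEM16F KO members, and at 2702 and 1160 CPM in low and high vector control members. Spp1, which encodes osteopontin, was at 7147 and 2611 CPM in low and high TMEM16F KO members, and at 6129 and 2105 CPM in those of the vector control library. Thbs1 was at 1005 and 225 CPM in low and high TMEM16F KO members, and at 782 and 139 CPM in low and high vector control members. Plac8 was at 1503 and 585 CPM in TMEM16F KO and at 2082 and 486 CPM in vector control members, again low before high. The MHC class II low cells thus held more of all 4 genes in both libraries.

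The MHC class II high cells held more Cxcl9, a chemokine for T cells that interferon gamma induces. It was at 424 CPM in low and 1146 CPM in high TMEM16F KO members, and at 614 and 1010 CPM in low and high vector control members. Mgl2, a lectin of dendritic cells and some macrophages, was at 51.8 and 192 CPM in low and high TMEM16F KO members, and at 28.6 and 225 CPM in those of the vector control library. High cells were deeper, with a median of 7949 UMIs against 5805.5 in low TMEM16F KO members, and 7439 against 5097 in low vector control members.

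**Figure D3:**
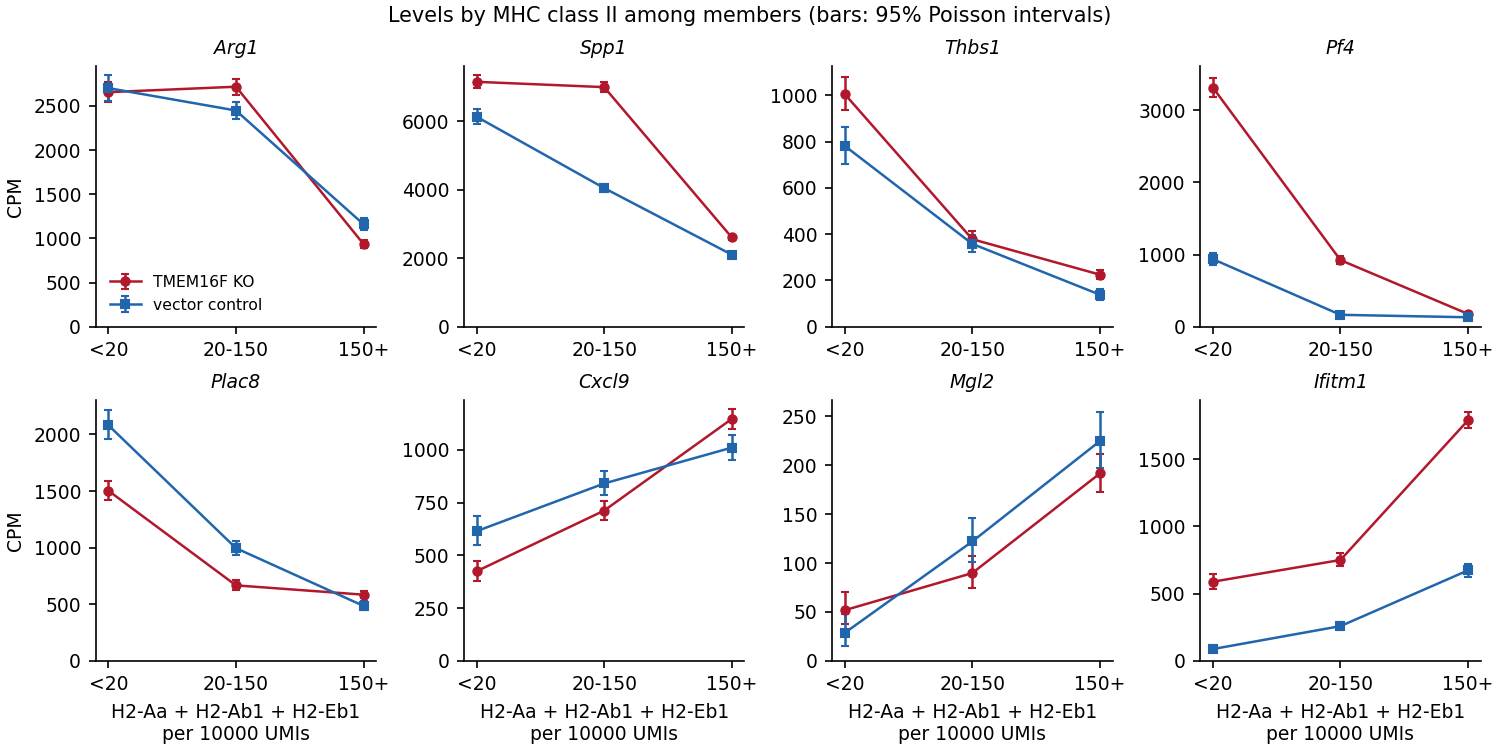
CPM of 8 genes in members under 20, at 20 to under 150, and at 150 and over of H2-Aa, H2-Ab1 and H2-Eb1 per 10000 UMIs, in TMEM16F KO (red circles) and vector control (blue squares) libraries, with 95% Poisson intervals. Arg1, Spp1, Thbs1, Pf4 and Plac8 are highest in low cells or, for Arg1 in the TMEM16F KO library, in the middle group, and Cxcl9, Mgl2 and Ifitm1 are highest in high cells.

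TMEM16F KO members were then set against vector control members. A gene is called higher or lower where its CPM differed by at least 1.5-fold. Of 5624 measured genes, 229 (4.07%) were higher in TMEM16F KO members and 85 (1.51%) lower, so 314 (5.58%) differed either way. Higher genes made up 72.9% of those called. With mitochondrial, ribosomal protein and haemoglobin genes left out of the totals, 189 were higher and 118 lower, a share of 61.6%. The median log2 ratio over all measured genes was 0.03. Il1b, Lyz2, Cd14 and Osm stayed inside 1.5-fold, with Cd14 nearest at 1.32-fold (1.27 to 1.37). For Il1b and Lyz2 the gate sets a minimum in every member. Ano6, the gene knocked out in the tumour cells, had 25.6 CPM in TMEM16F KO and 23.2 CPM in vector control members. That does not check the knockout, since the phagocytes come from the host and 3′ reads can miss an upstream edit.

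**Figure D4:**
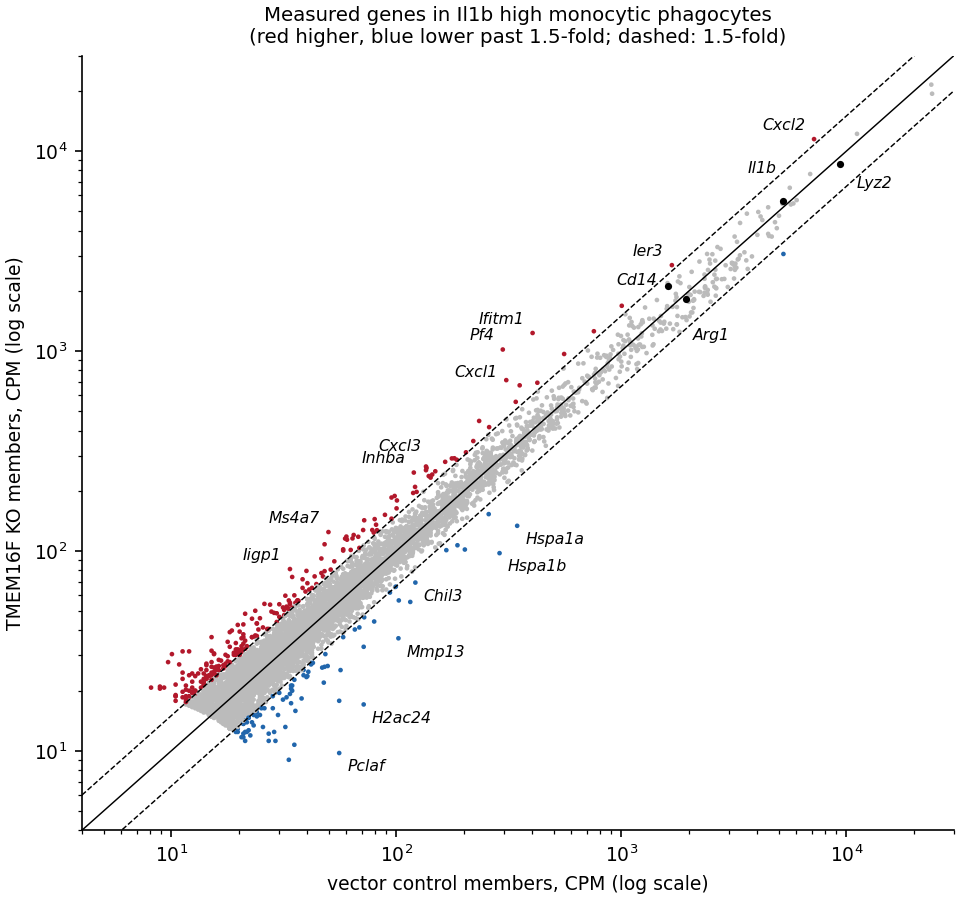
CPM of each of 5624 measured genes in vector control (x axis) and TMEM16F KO (y axis) members, both log scales, with the solid line at equality and dashed lines at 1.5-fold. Pf4, Ifitm1 and Cxcl1 lie farthest above the upper dashed line among abundant genes, and Hspa1a and Hspa1b below the lower one.

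Chemokines that act on neutrophils had the highest median of the lists with at least 4 measured genes. All 4 of its measured genes were higher in TMEM16F KO members, against 4.07% of all measured genes, with a median log2 ratio of 1.06, while Cxcl5 and Ppbp were too low to measure. Cxcl1, Cxcl2 and Cxcl3 are ligands of the neutrophil receptor CXCR2. Pf4, platelet factor 4, lies in the same cluster on chromosome 5, but it binds heparin and is not a classical CXCR2 ligand. Cxcl2 was at 11485 CPM in TMEM16F KO and 7182 CPM in vector control members, a ratio of 1.599 (1.57 to 1.63). Cxcl1 was at 715 and 308 CPM in TMEM16F KO and vector control members, a ratio of 2.32 (2.15 to 2.51). Cxcl3 was at 253 CPM in TMEM16F KO and 135 CPM in vector control members, a ratio of 1.87 (1.66 to 2.12), which was 1.45 when each cell was thinned to 2000 UMIs. Pf4 was at 1017 CPM in TMEM16F KO and 297 CPM in vector control members, the highest ratio of all measured genes at 3.42 (3.17 to 3.70).

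These chemokines sat in different numbers of cells. In cells thinned to 2000 UMIs, Cxcl2 was seen in 92.4% of TMEM16F KO and 84.0% of vector control members, though also in 48.4% and 32.1% of T cell barcodes. Cxcl1 was seen in 26.8% of TMEM16F KO and 17.3% of vector control members, against 5.38% and 4.47% of T cell barcodes. Cxcl3 was seen in 10.6% of TMEM16F KO and 7.14% of vector control members. Pf4 was seen in 33.1% of TMEM16F KO and 17.7% of vector control members, against 20.6% and 8.67% of T cell barcodes. In T cell barcodes Pf4 stood at 106 CPM in TMEM16F KO and 47.1 CPM in vector control. The tenth of members with most Pf4 held 86.5% of its UMIs in TMEM16F KO and 86.7% in vector control members.

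Pf4, Cxcl1 and Cxcl3 were also strongest in MHC class II low members. Pf4 was at 3314 CPM in low and 177 CPM in high TMEM16F KO members, and at 937 and 131 CPM in low and high vector control members. Cxcl3 was at 899 and 77.7 CPM in low and high TMEM16F KO members, and at 396 and 31.7 CPM in those of the vector control library. Cxcl1 was at 1247 and 441 CPM in low and high TMEM16F KO members, and at 702 and 154 CPM in those of the vector control library. All 3 differences between the libraries were thus also present among MHC class II low cells alone.

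Neighbouring gates differed in the same direction. Cxcl1 was 2.19-fold higher in TMEM16F KO among Il1b low cells of the same gate, 1.90-fold among Il1b high cells over the C1q limit and 1.96-fold among C1q high, Il1b low cells. Pf4 was 2.47-fold, 1.58-fold and 1.65-fold higher in TMEM16F KO in those gates. Cxcl2 stood at ratios of 1.22, 1.44 and 1.45 in the same 3 gates, each under 1.5-fold. Whether the ratios differ between gates was not tested.

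The promoters of the 4 chemokine genes, which were all called higher, and of Il1b are shown as a description. Il1b was not called, but the gate sets its minimum in every member, so it is no comparison gene. Each is the 250 bases before the gene's start, from RefSeq on GRCm38.p6, written 5′ to 3′ along the gene, and capitals mark matches to a kappaB motif, the kind of site that NF-kB binds. The letters searched, on both strands, were GGG, any 2 bases, then TTTCC.
Cxcl1, chr5:90890995-90891244, plus strand: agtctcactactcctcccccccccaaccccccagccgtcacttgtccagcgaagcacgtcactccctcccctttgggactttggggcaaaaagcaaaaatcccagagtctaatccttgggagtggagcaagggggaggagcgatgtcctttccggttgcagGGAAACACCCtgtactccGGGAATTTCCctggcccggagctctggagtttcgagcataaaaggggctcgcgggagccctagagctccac
Cxcl2, chr5:90903649-90903898, plus strand: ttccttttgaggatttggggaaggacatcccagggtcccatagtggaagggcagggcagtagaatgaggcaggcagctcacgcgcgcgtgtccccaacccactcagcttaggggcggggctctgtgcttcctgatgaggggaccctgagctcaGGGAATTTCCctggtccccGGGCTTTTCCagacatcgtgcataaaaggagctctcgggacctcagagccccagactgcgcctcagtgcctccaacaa
Cxcl3, chr5:90785851-90786100, plus strand: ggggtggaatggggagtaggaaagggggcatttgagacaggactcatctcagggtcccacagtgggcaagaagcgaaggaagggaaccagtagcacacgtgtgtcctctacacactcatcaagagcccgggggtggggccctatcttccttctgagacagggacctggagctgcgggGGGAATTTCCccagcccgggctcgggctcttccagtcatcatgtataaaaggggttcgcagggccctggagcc
Pf4, chr5:90772185-90772434, plus strand: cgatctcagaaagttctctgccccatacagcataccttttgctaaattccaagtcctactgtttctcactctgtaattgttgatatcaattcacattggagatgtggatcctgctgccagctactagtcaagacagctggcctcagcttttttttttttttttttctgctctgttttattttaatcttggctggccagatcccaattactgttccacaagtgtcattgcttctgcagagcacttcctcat
Il1b, chr2:129371140-129371389, minus strand: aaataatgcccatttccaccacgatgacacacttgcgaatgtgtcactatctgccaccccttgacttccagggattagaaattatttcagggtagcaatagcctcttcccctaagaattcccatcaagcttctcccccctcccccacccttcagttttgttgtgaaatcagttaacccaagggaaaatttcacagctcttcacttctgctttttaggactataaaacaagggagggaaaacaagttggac

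Cxcl1 had 2 matches, beginning 89 and 71 bases before the start, Cxcl2 had 2, at 97 and 78 bases, and Cxcl3 had 1, at 73 bases. The motif was in 464 of 32851 promoters of the same length, or 1.41%. Pf4 and Il1b had none in this window. Of 2 other motifs searched on both strands, the AP-1 letters TGANTCA were in 6.75% of promoters and in none of the 5, and the C/EBP letters TTGCNNAA in 9.56% and only in that of Pf4 among the 5. A match is a description of letters, and binding was not measured.

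Genes stimulated by type I interferon, the antiviral cytokine, had 18 measured genes, with a median log2 ratio of 0.45. In TMEM16F KO members 7 (38.9%) were higher, beside 4.07% of all measured genes, and 0 lower. Isg15, a ubiquitin-like protein, was at 557 CPM in TMEM16F KO and 339 CPM in vector control members, a ratio of 1.64 (1.52 to 1.78). Oasl1 was at 79.4 and 39.8 CPM in TMEM16F KO and vector control members, a ratio of 1.99 (1.59 to 2.51). Ifih1, a sensor of viral RNA, was at 65.3 CPM in TMEM16F KO and 38.3 CPM in vector control members. Oasl2, Ifi205, Ifit1 and Ifit2 made up the rest, at ratios of 1.66, 1.52, 1.83 and 1.58. Ifi205 and Ifit2 did not reach 1.5-fold under several other settings, the lowest ratios being 1.32 and 1.33. Isg15 and Ifit1 were seen in 50.4% and 5.41% of thinned TMEM16F KO members, against 34.99% and 11.5% of T cell barcodes of that library. Ifih1 was seen in 5.44% of vector control members, below the 8.20% of their T cell barcodes.

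Ifitm1, an interferon-inducible membrane protein outside that list, had the next highest ratio after Pf4. It was at 1231 CPM in TMEM16F KO and 403 CPM in vector control members, 3.05-fold higher (2.86 to 3.27). It differed from Pf4 in its place among the members: it was at 589 CPM in MHC class II low and 1789 CPM in MHC class II high TMEM16F KO members, and at 87.8 and 673 CPM in those of the vector control library. T cell barcodes, which make it too, had 937 CPM in TMEM16F KO and 661 CPM in vector control. It was 3.20-fold higher in TMEM16F KO among Il1b low cells and 2.84-fold among Il1b high cells over the C1q limit.

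Of 18 measured interferon gamma response genes, 2 (11.1%) were higher in TMEM16F KO members, beside 4.07% of all measured genes, and 0 lower. Their median log2 ratio was 0.30. Iigp1, a GTPase that attacks the vacuoles of parasites, was at 81.1 CPM in TMEM16F KO and 33.7 CPM in vector control members, a ratio of 2.41 (1.90 to 3.09), though it was seen in 4.08% of thinned vector control members, under the 4.94% of their T cell barcodes. Socs1, a feedback inhibitor of cytokine signalling, was at 163 CPM in TMEM16F KO and 100.2 CPM in vector control members, but its share of thinned members, 22.5% and 16.7%, was below the 36.3% and 30.01% of T cell barcodes, which also make it. Cxcl9 was at 870 CPM in both. Of 12 MHC class II presentation genes, 1 (8.33%) was higher, the co-stimulator Cd86, at 250 CPM in TMEM16F KO and 149 CPM in vector control members. H2-Aa was at 6556 CPM in TMEM16F KO and 5602 CPM in vector control members, and Cd74, the invariant chain, at 12203 and 11146 CPM, both inside 1.5-fold.

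In the interleukin 1 and inflammasome list, 3 of 14 measured genes (21.4%) were higher in TMEM16F KO members, beside 4.07% of all measured genes. The median log2 ratio was 0.30, and 0 genes were lower. Il18bp, a secreted protein that neutralises interleukin 18, was at 48.5 CPM in TMEM16F KO and 21.3 CPM in vector control members, a ratio of 2.28 (1.68 to 3.13). Il18 itself was at 30.2 and 17.4 CPM in TMEM16F KO and vector control members. Casp4, the protease of the non-canonical inflammasome known as caspase 11 in mice, was at 53.8 CPM in TMEM16F KO and 27.5 CPM in vector control members. The core genes were inside 1.5-fold: Nlrp3 was at 397 and 323 CPM, Casp1 at 61.4 and 53.4 CPM, and Pycard, the adaptor, at 376 and 354 CPM in TMEM16F KO and vector control members. So were the antagonists Il1rn, at 325 CPM in TMEM16F KO and 241 CPM in vector control members, and Il1r2, at 243 and 164 CPM.

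Of 14 measured inflammatory cytokines and growth factors, 4 (28.6%) were higher in TMEM16F KO members and 1 (7.14%) lower, with a median log2 ratio of 0.21. The shares over all measured genes were 4.07% and 1.51%. Inhba, the activin A subunit, was at 247 CPM in TMEM16F KO and 120 CPM in vector control members, a ratio of 2.06 (1.81 to 2.35). It was seen in 20.6% of TMEM16F KO and 13.9% of vector control thinned members, against 2.12% and 1.03% of T cell barcodes. Il27, an interleukin 12 family subunit, Gdf15, a stress-induced factor, and Hbegf, an EGF receptor ligand, were higher at ratios of 2.04, 1.96 and 1.71, all under 50 CPM in both libraries. Pdgfb was lower, at 27.5 CPM in TMEM16F KO and 42.6 CPM in vector control members. Tnf was at 441 and 377 CPM, and Vegfa at 329 and 268 CPM, in TMEM16F KO and vector control members.

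Among 14 measured chemokines for monocytes and T cells, 4 (28.6%) were higher in TMEM16F KO members and 1 (7.14%) lower, with a median log2 ratio of 0.34. Over all measured genes, 4.07% were higher and 1.51% lower. Ccl7 and Ccl12 are ligands of CCR2, Ccl8 is a related chemokine, and Ccl5 is a chemokine that T cells also make. Ccl7 was at 694 CPM in TMEM16F KO and 423 CPM in vector control members, a ratio of 1.64 (1.53 to 1.76), but 5 other settings put it under 1.5-fold, the lowest at 1.198. Ccl12 was at 209 and 121 CPM in TMEM16F KO and vector control members. Ccl8 and Ccl5, at ratios of 2.25 and 1.92, were seen in 18.2% and 30.1% of thinned TMEM16F KO members but in 21.4% and 64.6% of T cell barcodes of that library, and the part of T cell RNA in these values was not tested. Ccl4, also a product of T cells, was at 2133 CPM in TMEM16F KO and 1615 CPM in vector control members, and Ccl2 at 1309 and 1137 CPM. Cxcl14 was lower, at 15.1 and 29.8 CPM in TMEM16F KO and vector control members.

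NF-kB subunits and feedback inhibitors had 1 of 23 measured genes higher in TMEM16F KO members, 4.35% of the list beside 4.07% of all measured genes. That gene was Ier3, an early response gene that limits cell death, at 2689 CPM in TMEM16F KO and 1676 CPM in vector control members. Nfkbia, the inhibitor that NF-kB itself induces, was at 3245 and 2759 CPM. Of 21 AP-1 and immediate early genes, 2 were higher, Egr1 at 311 CPM in TMEM16F KO and 204 CPM in vector control members, and Dusp2 at 279 and 165 CPM. Egr1 was under 1.5-fold in 5 other settings, the lowest at 1.38, and Dusp2 was far more abundant in T cell barcodes, at 860 CPM in TMEM16F KO and 704 CPM in vector control. Of 19 myeloid transcription factors, 1 was higher, Tcf4, at 54.1 CPM in TMEM16F KO and 30.2 CPM in vector control members.

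**Figure D5:**
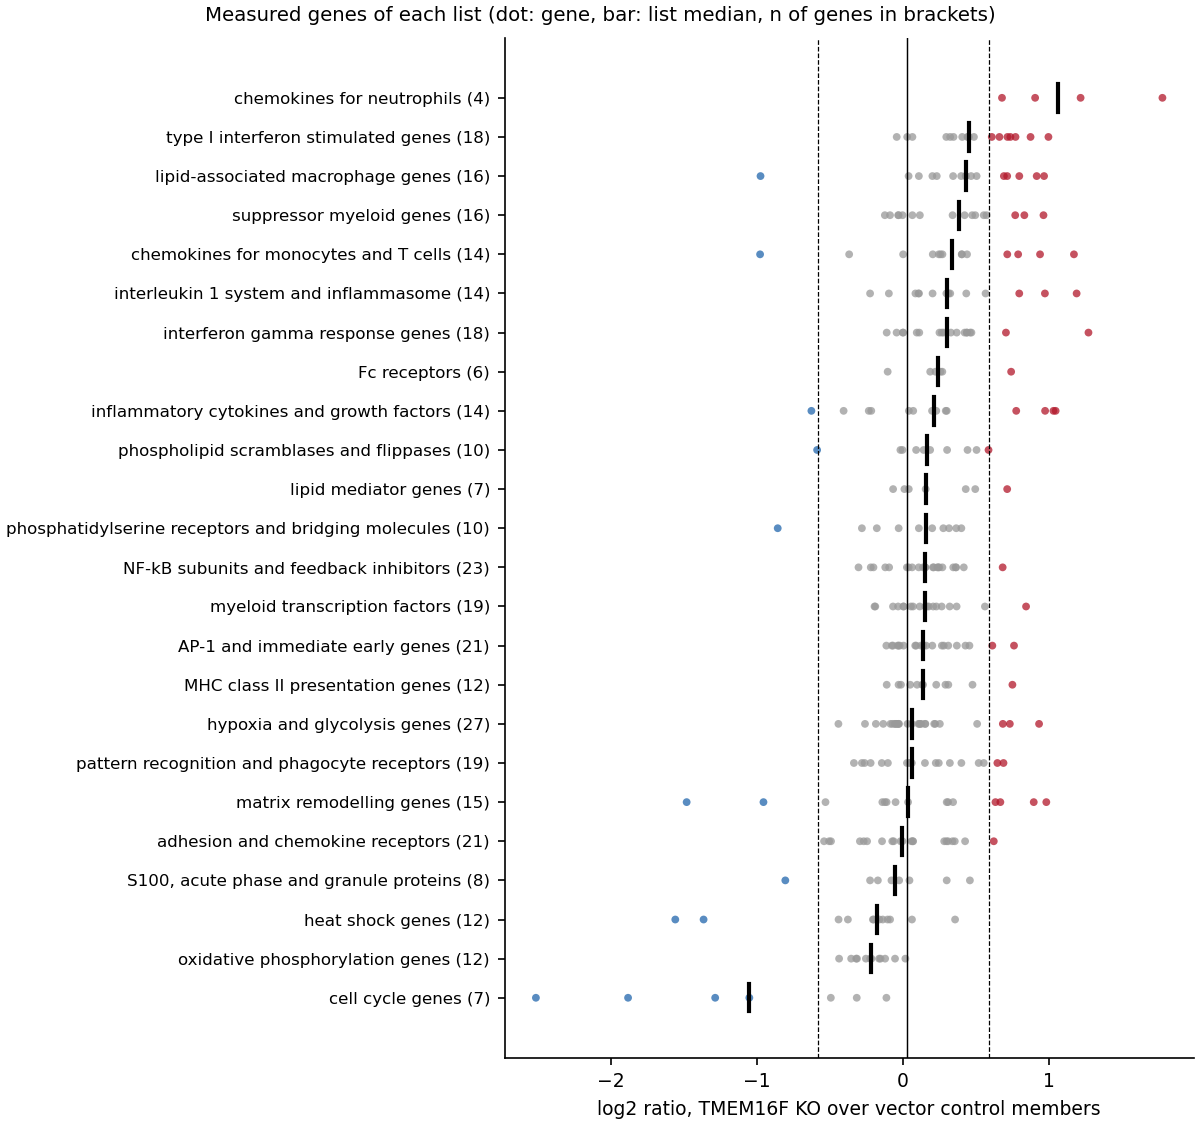
Log2 ratio of TMEM16F KO over vector control members for the measured genes of each list, with the number of genes in brackets, list medians as black bars, the median of all measured genes as the solid line and 1.5-fold as dashed lines. Of these lists, each with at least 4 measured genes, chemokines for neutrophils lie highest, with a median of 1.06, and cell cycle genes lowest, with a median of -1.05.

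Lipid-associated macrophage genes had 5 of 16 measured genes (31.25%) higher in TMEM16F KO members and 1 (6.25%) lower, with a median log2 ratio of 0.43. The shares over all measured genes were 4.07% and 1.51%. Ctsl, the lysosomal protease cathepsin L, was at 966 CPM in TMEM16F KO and 557 CPM in vector control members, a ratio of 1.74 (1.63 to 1.85). Cd63, a tetraspanin of late endosomes, was at 264 CPM in TMEM16F KO and 135 CPM in vector control members. Plin2, a coat protein of lipid droplets, was at 354 and 220 CPM, Pla2g7, the hydrolase of platelet activating factor, at 233 and 142 CPM, and Abca1 at 114 and 60.3 CPM in TMEM16F KO and vector control members. Lpl, lipoprotein lipase, was lower, at 17.3 CPM in TMEM16F KO and 34.0 CPM in vector control members. The sum of the 9 macrophage markers outside the gate moved with this list, at 2762 CPM in TMEM16F KO and 2127 CPM in vector control members, and their part in it was not tested. Of these markers Ms4a7 was higher, at 124 CPM in TMEM16F KO and 49.9 CPM in vector control members.

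Of 16 measured suppressor myeloid genes, 3 (18.75%) were higher in TMEM16F KO members, beside 4.07% of all measured genes, and 0 lower. Their median log2 ratio was 0.38. Arg2, mitochondrial arginase, was at 115 CPM in TMEM16F KO and 59.2 CPM in vector control members, a ratio of 1.95 (1.62 to 2.35). Slc7a11, the cystine importer, was at 179 and 101 CPM in TMEM16F KO and vector control members. Its ratio was 1.35 when the tenth of members with the largest share of nuclear RNA was left out, a setting chosen after the data were seen. Pdcd1lg2, which encodes the PD-1 ligand PD-L2, was higher at 1.70-fold but was seen in 9.09% of thinned TMEM16F KO members against 16.9% of T cell barcodes. Arg1 was at 1829 CPM in TMEM16F KO and 1946 CPM in vector control members, and Cd274, which encodes PD-L1, at 283 and 212 CPM.

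In hypoxia and glycolysis genes, 3 of 27 measured (11.1%) were higher in TMEM16F KO members, beside 4.07% of all measured genes, and 0 lower. Their median log2 ratio was 0.06, near that of all genes. Hilpda, a hypoxia-inducible inhibitor of lipolysis, was at 673 CPM in TMEM16F KO and 353 CPM in vector control members, a ratio of 1.91 (1.77 to 2.06). Upp1, uridine phosphorylase, and Pfkfb3, an activator of glycolysis, were higher at 1.61-fold and 1.66-fold. The glycolytic enzymes themselves were close: Gapdh was at 5473 CPM in TMEM16F KO and 5813 CPM in vector control members, and Ldha at 1206 and 1372 CPM. Hilpda was also 1.62-fold to 2.30-fold higher in TMEM16F KO in the 3 neighbouring phagocyte gates. Of 12 oxidative phosphorylation genes, 0 passed 1.5-fold, and the median log2 ratio was -0.22.

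Surface receptors are read beside the 4.07% of all measured genes that were higher. Of 19 measured pattern recognition and phagocyte receptors, 2 were higher in TMEM16F KO members. These were Clec4d, a partner of Mincle, at 416 CPM in TMEM16F KO and 258 CPM in vector control members, and Ly96, the MD-2 partner of TLR4, at 37.5 and 23.98 CPM. Of 6 Fc receptor genes, Fcgr4, which encodes a receptor for antibody, was higher, at 241 CPM in TMEM16F KO and 144 CPM in vector control members. Of 21 adhesion and chemokine receptors, C5ar1, the receptor for complement C5a, was higher at 286 and 186 CPM in TMEM16F KO and vector control members. It did not reach 1.5-fold under 4 other settings, the lowest ratio being 1.26.

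Genes that handle phosphatidylserine, the lipid that TMEM16F exposes, are read beside the 5.58% of all measured genes that differed either way. Of 10 measured receptors and bridging molecules 0 were higher, and 1 was lower in TMEM16F KO members, the kinase receptor Axl, at 56.5 CPM in TMEM16F KO and 103 CPM in vector control members. Its ratio of 0.551 (0.460 to 0.660) stood beside 0.592, 0.663 and 0.534 in the 3 neighbouring phagocyte gates. The 12 genes too low to measure included Mertk and Tyro3, its sister receptors, and the bridging ligands Gas6 and Pros1. Of 10 measured scramblases and flippases, Atp8a1 was higher, at 44.1 CPM in TMEM16F KO and 29.4 CPM in vector control members, but passed the limit in only 4 of 14 other settings. Plscr3 was lower, at 13.9 CPM in TMEM16F KO and 20.9 CPM in vector control members, and passed in 7 of 11.

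Matrix remodelling genes went both ways, with 4 of 15 measured (26.7%) higher in TMEM16F KO members and 2 (13.3%) lower. The shares over all measured genes were 4.07% and 1.51%. Timp1 and Timp2, inhibitors of metalloproteases, were at 91.6 and 59.7 CPM in TMEM16F KO members, against 46.4 and 32.1 CPM in vector control members. Mmp19 and Vcan, the proteoglycan versican, were higher at 1.55-fold and 1.59-fold. Mmp13, a collagenase, was at 36.5 CPM in TMEM16F KO and 102 CPM in vector control members, but 1 vector control member held 48.5% of that library's Mmp13 UMIs. Mmp8, a neutrophil collagenase, was lower at 13.2 and 25.5 CPM in TMEM16F KO and vector control members.

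The genes lowest in TMEM16F KO members came from the cell cycle and from heat shock. All 7 measured cell cycle genes were below equality and 4 were called lower, against 1.51% of all measured genes, with a median log2 ratio of -1.05. The median was -0.25 without members over 20000 UMIs. Pclaf, a partner of the replication clamp, was at 9.75 CPM in TMEM16F KO and 55.7 CPM in vector control members, from 40 and 144 UMIs, and 1 vector control member held 34.7% of the UMIs of its library. Birc5, the mitotic protein survivin, was at 9.01 and 33.3 CPM, Ube2c at 13.2 and 32.1 CPM, and Stmn1, a microtubule regulator, at 55.6 and 115 CPM in TMEM16F KO and vector control members. The histone genes H2ac24, H1f5, H2ac8 and H4c4 were among the 15 lowest genes, at ratios of 0.238, 0.305, 0.414 and 0.445. Few members carry these transcripts: after thinning, Pclaf was seen in 2.16% of TMEM16F KO and 4.08% of vector control members, below the 8.78% and 15.2% of T cell barcodes, among which cycling cells make it. Without thinning, Pclaf, Birc5 and Ube2c were seen in 4.52%, 3.73% and 4.91% of TMEM16F KO members. In vector control members the shares were 6.93%, 8.13% and 7.53%, so these values rest on few cells.

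Of 12 measured heat shock genes, 2 (16.7%) were lower in TMEM16F KO members, beside 1.51% of all measured genes. These 2 were the stress-inducible Hsp70 pair. Hspa1a was at 134 CPM in TMEM16F KO and 344 CPM in vector control members, a ratio of 0.388 (0.348 to 0.432). Hspa1b was at 97.5 and 287 CPM in TMEM16F KO and vector control members, a ratio of 0.339 (0.2995 to 0.383). These near-identical genes share reads, so the split between them is uncertain. T cell barcodes differed likewise, with Hspa1a at 223 CPM in TMEM16F KO and 436 CPM in vector control. The constitutive Hspa8 was at 2090 CPM in TMEM16F KO and 2004 CPM in vector control members.

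Monocyte markers leaned the other way from macrophage markers by their median log2 ratio of -0.23, which is inside 1.5-fold. Of 10 measured, 7 lay below equality, but by calls 2 were higher in TMEM16F KO members and 1 lower. The higher and lower shares were 20% and 10%, beside 4.07% and 1.51% of all measured genes. Chil3, a chitinase-like protein of immature monocytes, was at 69.4 CPM in TMEM16F KO and 121 CPM in vector control members, a ratio of 0.572 (0.485 to 0.673). It was seen in 9.31% of TMEM16F KO and 18.0% of vector control thinned members, against 0.142% and 0.280% of T cell barcodes. It was lower in TMEM16F KO in the 3 neighbouring phagocyte gates as well, at ratios of 0.470, 0.409 and 0.286. The 2 higher markers were Ms4a4c, at 237 CPM in TMEM16F KO and 139 CPM in vector control members, and Vcan, at a log2 ratio of 0.67. Fn1 and Ccr2 stood at ratios of 0.692 and 0.710, inside 1.5-fold.

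Among the 15 highest genes, Gzmb, the granzyme of cytotoxic cells, was at 37.0 CPM in TMEM16F KO and 15.1 CPM in vector control members, beside 2007 and 1298 CPM in T cell barcodes. It was seen in 4.55% of TMEM16F KO thinned members, under the 60.3% of T cell barcodes, which make it, and 1 TMEM16F KO member held 17.8% of its UMIs. The part of T cell RNA in the difference was not tested. Pecam1 was at 20.7 CPM in TMEM16F KO and 8.12 CPM in vector control members. Pgf, placental growth factor, was at 27.0 CPM in TMEM16F KO and 10.8 CPM in vector control members, a ratio of 2.50 (1.64 to 3.93). Pde7b, a cAMP phosphodiesterase, was at 31.4 and 11.2 CPM in TMEM16F KO and vector control members. Iigp1c, Lsmem1, Gm14636, Zbtb2 and Zfp830 were under 50 CPM in both libraries. Pde7b and Lsmem1 were also among the 20 genes lowest in members against Il1b low cells, which held more nuclear RNA. Their ratios were 2.06 and 1.89 without the tenth of members with the largest share of nuclear RNA. The part of nuclear RNA in them was not tested. Of the 15 lowest genes, Gzmc rested on 1 vector control member with 75.7% of the library's UMIs, and Igkc, an antibody light chain, was at 11.2 CPM in TMEM16F KO and 29.0 CPM in vector control members. Qpct, glutaminyl cyclase, was at 25.3 CPM in TMEM16F KO and 56.5 CPM in vector control members, and Tipin was at a ratio of 0.434.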

How the data were processed

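Single-cell 3′ libraries were made with 10x Genomics droplets, per the labels' protocols. The authors deposited UMI counts per gene and barcode as whole numbers without normalisation, and per the file headers Cell Ranger 8.0.0 made them. The submitters' processing notes name mm10 as the build and Seurat 3.1.1, without the step it served. In total there were 49777630 UMIs over 5993 barcodes in TMEM16F KO and 46338994 over 5253 in vector control.

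Members were gated in raw counts with Python 3.11.15, numpy 2.4.6, scipy 1.17.1 and pandas 2.3.3, without clustering, and plots used matplotlib 3.10.9. Their UMIs were summed per library and gene and scaled to 1000000. T cell barcodes had over 2 Cd3 UMIs, with Lyz2 under 20 and C1q under 40 per 10000 UMIs. Ratios have conditional binomial, levels Poisson and shares Clopper-Pearson intervals at 95%, all for counting error. UMIs of 1 gene can sit in few cells, so the intervals are too narrow there. For thinned shares, 47 TMEM16F KO and 38 vector control members under 2000 UMIs were left out, with 52 and 63 T cell barcodes. Scrublet in scanpy 1.11.5 marked 0 barcodes by its automatic threshold and so did not work. As an alternative, the highest scores were left out at 0.8% per 1000 barcodes, which took 7 TMEM16F KO and 3 vector control members.

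Named were genes of the lists past 1.5-fold or with most UMIs, the 15 highest and 15 lowest ratios, the 20 leading genes over Il1b low cells, and gate genes with Ano6. Members, lists and limits were chosen with earlier results of these data known. A feature table symbol that occurs more than once was read from its first row, and 4 oxidative phosphorylation symbols did not match the table. The summing code was tested on simulated data. The alternatives are given at the end.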

Additional observations from a re-analysis of the deposited data

Results flagged for a closer look

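In 5 genes the TMEM16F KO over vector control ratio passed 1.5-fold one way in Il1b high monocytic phagocytes and the other way in a neighbouring gate, and the difference between gates was not tested. Mmp13 had a ratio of 0.358 in members, against 2.43 in Il1b low cells of the same gate, 2.39 in Il1b high cells over the C1q limit and 1.70 in C1q high, Il1b low cells. Ube2c had a ratio of 0.410 in members and 1.72 in Il1b low cells. Gzmc had a ratio of 0.319 in members and 2.07 in Il1b low cells. Mmp8 had a ratio of 0.515 in members and 2.18 in C1q high, Il1b low cells. Ifih1 had a ratio of 1.71 in members and 0.640 in C1q high, Il1b low cells. Among vector control members, 1 cell held 75.7% of the Gzmc UMIs and 1 cell held 48.5% of the Mmp13 UMIs.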

How the results depend on the processing

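The member share ratio stayed between 1.18 and 1.38 in all alternatives. The count of called genes, 314 as reported (229 higher, 85 lower), was 679 (522 and 157) with each cell weighted alike, 152 (116 and 36) after thinning to 2000 UMIs, 77 (64 and 13) with at least 400 UMIs and 1083 (698 and 385) with at least 30. With 400 or thinning, fewer genes could be measured. Leaving out the tenth of members with the largest share of nuclear RNA kept 442 of 509 TMEM16F KO and 314 of 332 vector control members. In them 156 genes were higher and 82 lower, and 65.5% of calls were higher. Of these calls 196 were among the 314 reported, and this setting was added after the data were seen. The higher share of calls was 72.9%, and 61.6% without mitochondrial, ribosomal and haemoglobin genes in the total. Of the named genes' log2 ratios under the alternatives, 1291 lay within the counting interval of the reported ratio, 143 moved outside it and 2 of called genes changed sign: Mmp13 to a log2 ratio of 0.33 without members over 20000 UMIs, and Gzmc to 0.35 without the member highest in each gene, an alternative added after the data were seen. The median of the neutrophil markers measured, -0.96 as reported from Mmp8 alone, was 0.49 with Il1b from 10 and 0.36 with at least 30 UMIs. The causes were not tested. At least 1 alternative put these called genes inside 1.5-fold: Cxcl3, Ccl7, Ccl12, Il18, Hbegf, Pdgfb, Egr1, Clec4d, Fcgr4, C5ar1, Slc7a11, Pdcd1lg2, Pfkfb3, Ifit1, Ifit2, Ifi205, Socs1, Cd86, Ctsl, Pla2g7, Lpl, Timp1, Mmp19, Vcan, Mmp13, Mmp8, Atp8a1, Plscr3, Tcf4, Stmn1, Gzmc, H2ac8, H4c4, the dendritic cell marker Clec10a and the NK cell marker Nkg7. No paired analysis was possible because each group has 1 library, so leaving out a replicate was not possible either. Depth limits low genes: under 100 UMIs a gene was not measured.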

Other observations

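3 abundant called genes stood outside the gene lists and were picked after their values were seen. Tmsb10, which encodes the actin-binding thymosin beta 10, was at 3058 CPM in TMEM16F KO and 5250 CPM in vector control members, a ratio of 0.583 (0.568 to 0.597). Ly6a, the interferon-inducible surface protein Sca-1, was at 1684 CPM in TMEM16F KO and 1004 CPM in vector control members, a ratio of 1.68 (1.603 to 1.755). The transcript AW112010 was at 1256 CPM in TMEM16F KO and 755 CPM in vector control members. Tmsb10 and AW112010 were seen in a larger share of thinned T cell barcodes than of members in both libraries, and the part of T cell RNA in their values was not tested.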
